A study of Rattus norvegicus with 8 samples.

Results

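Genes of sterol, fatty acid and lipid metabolism were examined in nucleus pulposus cells of the rat, which fill the soft centre of an intervertebral disc. The members were the rows of the deposited gene table with a Gene Ontology (GO) term on cholesterol, fatty acids or lipid metabolism, leaving out solute carriers, genes annotated to the mitochondrial matrix or inner membrane, to lysosomes or to autophagy, and 6 genes by name, and including Insig1, Acat2 and Fabp4. This gave 77 members among 4226 rows, of which 73 were labelled as protein-coding genes and 4 as long noncoding RNAs, these with no symbol. The 2 groups were SOD1-K123R (4 libraries), in which cells depleted of SOD1, an enzyme that disposes of superoxide in the cytosol, had been given a form with arginine in place of a lysine, and SOD1-WT (4 libraries), in which such cells had been given the wild-type protein. Both groups therefore carried the knockdown and a transfected SOD1, and both were labelled as treated with lactate, at 10 mM for 7 days. The question is what the substitution does to gene expression under lactate. The labels do not give the method of the knockdown, the age of the rats or whether the libraries of a group came from separate cultures. The p-values thus measure only spread among these libraries, which may be technical. The columns of the table are headed L for SOD1-K123R and Ctrl for SOD1-WT, and the labels do not expand L.

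Cells control their cholesterol in the endoplasmic reticulum, where INSIG proteins hold back the SREBP transcription factors when sterols are plentiful and release them when sterols are scarce. SREBPs then switch on the genes of sterol synthesis, of lipoprotein uptake and of fatty acid synthesis, while LXR nuclear receptors switch on cholesterol export. Fatty acids that are neither burned nor built into membranes are esterified and stored in lipid droplets coated with perilipins. The nucleus pulposus has no blood vessels of its own, and its cells live with little oxygen and much lactate.

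Values are TPM, an abundance that takes account of transcript length and of the size of the library. The rows of the table made up 24.0% ± 0.334 of the TPM total of a library in SOD1-K123R and 19.3% ± 0.526 in SOD1-WT (mean ± SD, n = 4 each), so the table holds some genes and not all. No source used here says by what rule those were chosen. Of 15 markers of nucleus pulposus and chondrocyte-like cells, 7 were among the rows. Sox9, a transcription factor of chondrogenic cells, averaged 3.19 TPM in SOD1-K123R and 0.400 TPM in SOD1-WT. Acan, which encodes aggrecan, averaged 0.645 TPM in SOD1-K123R and 1.545 TPM in SOD1-WT, and Col2a1, which encodes type II collagen, averaged 0.065 TPM in SOD1-K123R and 0 in SOD1-WT. These 2 defining matrix genes were thus low or near 0 in both groups, and Tbxt, a marker of the notochordal lineage, was not analysed here. The 7 summed to 32.1 to 49.3 TPM in SOD1-K123R libraries and 24.4 to 29.3 TPM in SOD1-WT libraries. Cd24, Car12 and Sox9 were called higher and Car3, Cdh2 and Acan lower. However, Car12 and Sox9 averaged under 1 TPM in SOD1-WT, and Car3 and Acan did so in SOD1-K123R. They reached the mean of 1 TPM needed for a test only through the group where they were high, so their calls support nothing on their own. The part of cell makeup in the results that follow was not tested. None of 5 hepatocyte markers and 1 of 5 endothelial markers were among the rows (Pecam1, 0.32 to 0.46 TPM in SOD1-K123R and 0.06 to 0.31 TPM in SOD1-WT). Sod1 itself was also not analysed here, so its level in each group is unknown.

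Of the 77 members, 62 averaged 1 TPM or more across all 8 libraries and were tested, and 61 of these differed at a Benjamini-Hochberg adjusted p under 0.05 (limma on log2(TPM + 1), adjusted over all rows tested). The background was nearly as high, since 95.7% of the 2890 rows tested were called. The members' share, 98.4%, is therefore not particular to lipid genes. If the rows of the table were chosen for a difference between these groups, which is not known, the adjusted p-values would overstate the evidence for each gene. In SOD1-K123R, 26 members rose (41.9%, background 44.6%) and 35 fell (56.5%, background 51.1%). A change of at least 2-fold was called upwards for 14 members (22.6%, background 26.0%) and downwards for 22 (35.5%, background 35.8%). That balance depends on how the libraries are scaled: after median-of-ratios scaling, which moved the median log2 fold change of all rows by 0.347, the corresponding numbers were 22 up and 8 down, and after quantile normalization, which moved it by 0.244, they were 18 and 16. The median log2 fold change was -0.55 over the tested members and -0.49 over all tested rows. With only rows that averaged 5 TPM or more, these medians were 0.20 and 0.27, so the negative sign of the median depends on genes of low level. Members with that mean that were called at least 2-fold higher or lower numbered 11 and 14. The libraries of the groups did not overlap for 58 members, where the background was 91.4%. In bulk RNA, fewer cells expressing a gene and less RNA per cell cannot be told apart.

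**Figure D1:**
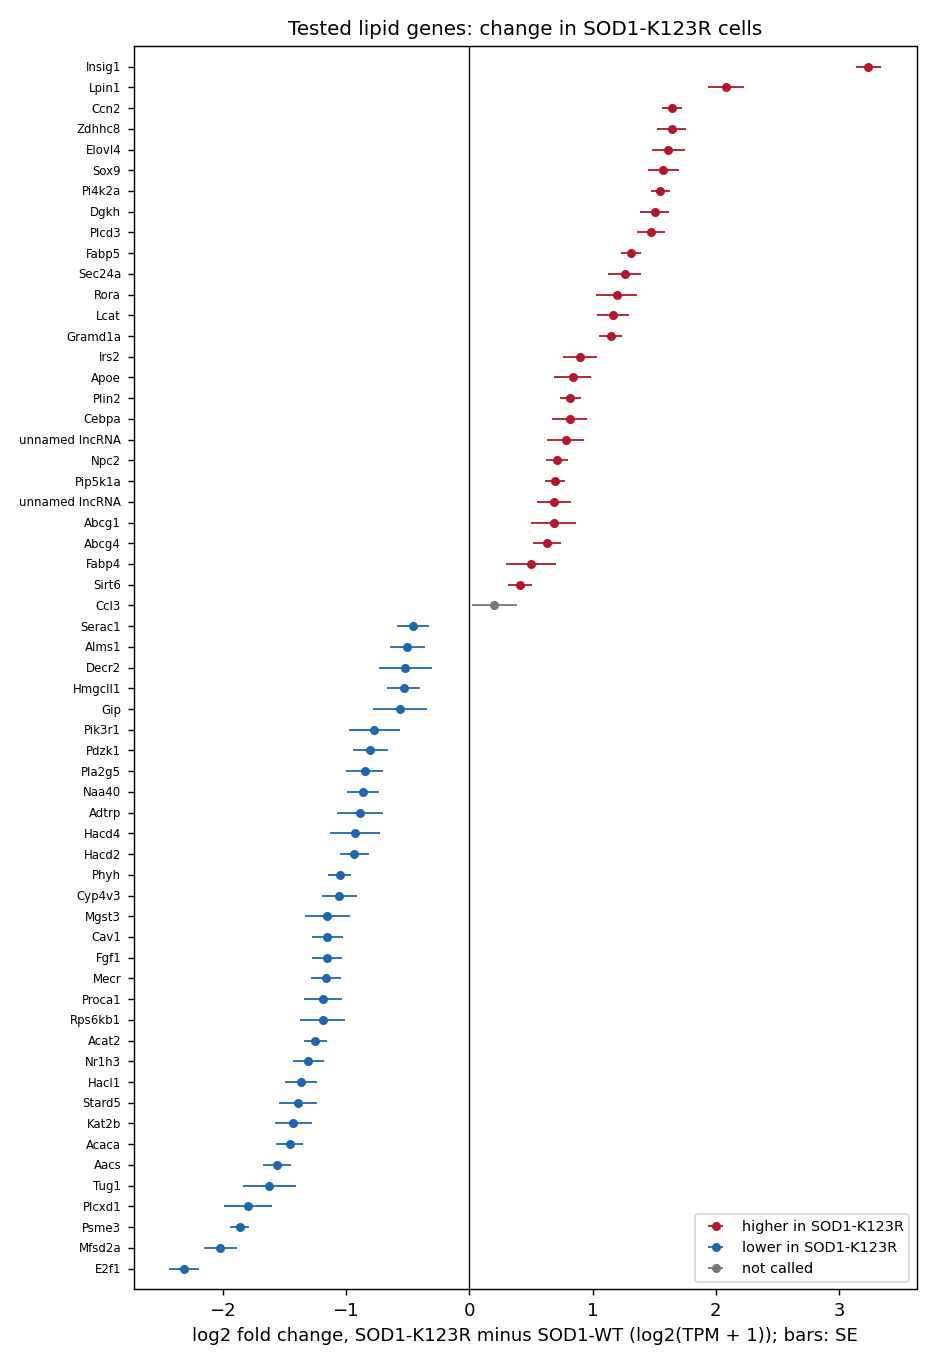
Log2 fold change (SOD1-K123R minus SOD1-WT, on the log2(TPM + 1) scale) of 59 of the tested members, with limma's standard error as bars. Insig1 stands apart at the top at 3.24, E2f1 lies at the bottom at -2.31, and Ccl3 is the member that was not called.

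The members spanned a wide range of abundance. Of them, 7 averaged 100 TPM or more, 28 lay between 5 and 100 TPM and 27 of those tested lay under 5 TPM. The most abundant was Ccn2, a matricellular growth factor that enters through the term response to fatty acid, with 3217 ± 197 TPM in SOD1-K123R and 1029 ± 39.1 TPM in SOD1-WT (mean ± SD, n = 4 each, as for all means that follow). Fabp5, Npc2, Insig1, Plin2 and Cav1 were the other abundant members that were called. Members varied little between libraries of a group, with a median coefficient of variation of 14.5% in SOD1-K123R and 16.0% in SOD1-WT.

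**Figure D2:**
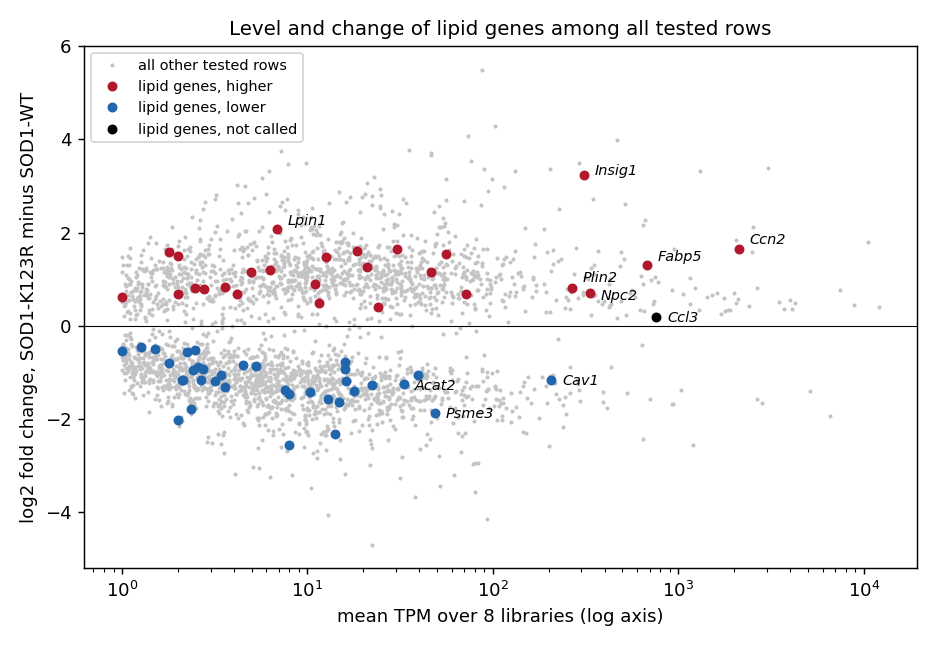
Mean TPM over the 8 libraries (log axis) against the log2 fold change for the 62 tested members (coloured) and all other tested rows (grey). The members lie within the cloud of all rows in both directions, and rows near a fold of 1 are scarce throughout: 8.44% of all tested rows had an absolute log2 fold change under 0.5.

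The largest change among the tested members was in a sterol gene, a rise of the sterol brake Insig1 to 9.53 times its SOD1-WT level, while Acat2, an enzyme at the start of sterol synthesis, fell. Insig1, which retains the SREBP escort protein SCAP in the endoplasmic reticulum and so holds back sterol synthesis, had 587, 578, 574 and 493 TPM in SOD1-K123R libraries, against 48.6, 59.5, 59.1 and 67.1 TPM in SOD1-WT libraries. Even the lowest SOD1-K123R library was far above every SOD1-WT library. The log2 fold change was 3.24 (SE 0.10, adjusted p = 1.1e-10, limma). Acat2, the cytosolic thiolase that makes acetoacetyl-CoA at the head of the mevalonate pathway, had 17.4, 20.8, 19.0 and 20.02 TPM in SOD1-K123R libraries, against 49.0, 49.0, 42.9 and 47.7 TPM in SOD1-WT libraries. Its groups did not overlap, and it stood in SOD1-K123R at 0.409 of its SOD1-WT mean (log2 fold change -1.25, SE 0.090, adjusted p = 5.45e-08, limma). Of the 23 genes of the sterol synthesis list 2 were among the rows and tested, and both fell, as did 51.1% of all tested rows.

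Nr1h3, the nuclear receptor LXR-alpha that senses oxysterols, fell to 1.92, 1.47, 1.69 and 1.53 TPM in SOD1-K123R libraries, against 5.96, 5.57, 4.51 and 6.24 TPM in SOD1-WT libraries. Every SOD1-K123R library was thus below the lowest SOD1-WT library. Its log2 fold change was -1.30 (SE 0.13, adjusted p = 6.19e-07, limma).

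**Figure D3:**
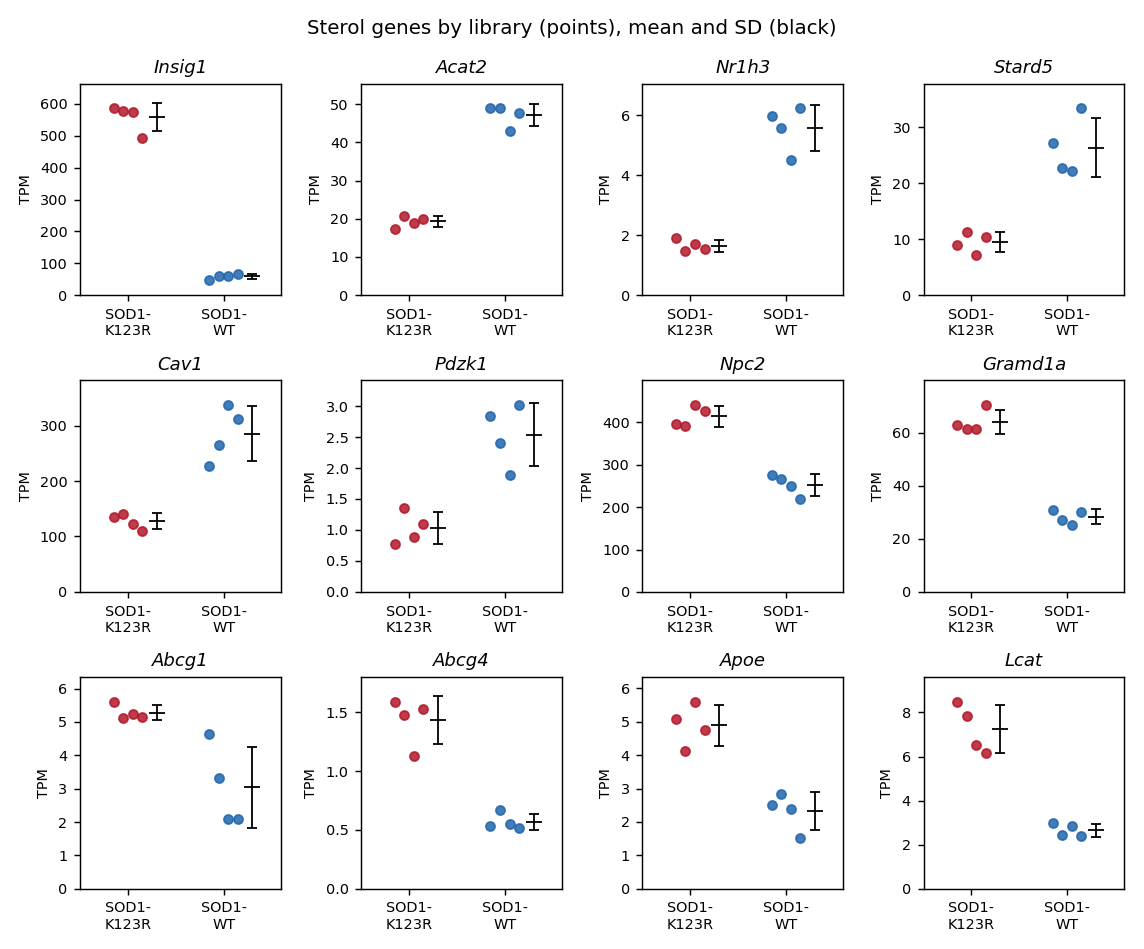
TPM of 12 sterol genes in each library (points), with the mean and SD of each group of 4 in black. Insig1 reaches 493 to 587 TPM in SOD1-K123R, whereas Acat2, Nr1h3, Stard5, Cav1 and Pdzk1 are lower there in every library and the genes from Npc2 to Lcat are higher in every library.

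The upstream sequences of 4 of these genes are shown because Insig1 and Acat2 are the sterol genes that moved apart, and Stard5 and Lpin1, described further on, fell and rose strongly among the carriers and the droplet genes. Each line gives the 250 bases before the RefSeq start in the GRCr8 assembly, on the gene's own strand, taken by symbol from RefSeq. Capitals mark a CCAAT box or an E-box (CACGTG), on either strand.
Insig1 (chr4:8057770-8058019, minus strand): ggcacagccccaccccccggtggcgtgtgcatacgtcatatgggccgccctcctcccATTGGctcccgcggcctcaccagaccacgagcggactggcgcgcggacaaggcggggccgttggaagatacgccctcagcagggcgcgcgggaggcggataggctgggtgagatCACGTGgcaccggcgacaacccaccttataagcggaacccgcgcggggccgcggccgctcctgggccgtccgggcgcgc
Acat2 (chr1:50100590-50100839, plus strand): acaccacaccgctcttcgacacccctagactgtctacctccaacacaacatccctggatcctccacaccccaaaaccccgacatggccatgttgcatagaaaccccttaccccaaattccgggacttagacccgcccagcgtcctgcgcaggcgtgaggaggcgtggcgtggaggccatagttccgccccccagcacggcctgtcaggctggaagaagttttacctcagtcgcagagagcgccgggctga
Stard5 (chr1:147015054-147015303, plus strand): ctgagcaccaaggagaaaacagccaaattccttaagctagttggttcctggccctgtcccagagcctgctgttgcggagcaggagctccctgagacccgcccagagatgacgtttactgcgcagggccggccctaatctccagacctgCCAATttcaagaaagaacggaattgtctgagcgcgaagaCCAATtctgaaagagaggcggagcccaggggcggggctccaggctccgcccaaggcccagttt
Lpin1 (chr6:45108943-45109192, minus strand): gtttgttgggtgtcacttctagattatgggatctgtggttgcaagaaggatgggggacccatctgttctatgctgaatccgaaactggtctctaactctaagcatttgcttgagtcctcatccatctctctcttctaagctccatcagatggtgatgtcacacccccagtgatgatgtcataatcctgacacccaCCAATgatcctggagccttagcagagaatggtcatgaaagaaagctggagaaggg

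In these windows Insig1 has 1 E-box, at position -79 from the start, and 1 inverted CCAAT box. Stard5 has 2 CCAAT boxes, Lpin1 has 1 and Acat2 has none. RefSeq gave a window for 59 members, 5 of them with several starts. The search covered the 42 tested members with a single start and 4 motifs on both strands, none of which contains another. CCAAT was found in 19 of the 42 windows (45.2%) and in 34.0% of all 33469 windows. All windows include every start of genes with several starts, and genes that were not tested here. The sets are thus unlike, and no difference between their shares was tested. Among members it stood in 7 of 15 that rose and 12 of 27 that fell. The E-box CACGTG was found in 4 windows (9.52%, against 5.59% of all windows), those of Insig1, Dgkh, Pip5k1a and Psme3. The sterol response element, searched as TCACNCCAC, was found in 0 of the 42 windows and in 0.974% of all windows, and the direct-repeat PPAR element in 0 and in 0.0508%. These are matches of letters and not sites of binding, and the absence of a match says nothing of the factor.

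Genes that carry, export or esterify sterols changed in both directions. Of 9 tested members in the list of sterol transport, 6 rose and 3 fell, against 44.6% and 51.1% of all tested rows. The median log2 fold change over the 11 genes of that list tested, members or not, was 0.63, against -0.49 for all rows. That median is the value of Abcg4, which passed the filter on low values only through SOD1-K123R, and it is given as a description. The 6 that rose were the carriers Npc2 and Gramd1a, the exporters Abcg1 and Abcg4, the lipoprotein Apoe and the esterifying enzyme Lcat. Npc2, which hands cholesterol out of late endosomes and lysosomes, had 397, 391, 442 and 427 TPM in SOD1-K123R libraries, against 277, 267, 249 and 219 TPM in SOD1-WT libraries. Gramd1a, which moves cholesterol from the plasma membrane to the endoplasmic reticulum, had 62.8, 61.3, 61.3 and 70.6 TPM in SOD1-K123R libraries, against 31.0, 27.2, 25.1 and 30.3 TPM in SOD1-WT libraries. The groups were well apart for both carriers (log2 fold changes 0.71, SE 0.089, and 1.15, SE 0.093; adjusted p = 6.49e-06 and 1.46e-07, limma).

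The exporters were much less abundant. Abcg1, which loads cholesterol onto high-density lipoprotein, had 5.61, 5.13, 5.23 and 5.16 TPM in SOD1-K123R libraries, against 4.65, 3.33, 2.09 and 2.08 TPM in SOD1-WT libraries. The SOD1-WT libraries were uneven, and the highest of them came close to the SOD1-K123R values (log2 fold change 0.68, SE 0.18, adjusted p = 0.00298, limma). Abcg4, a relative of Abcg1, averaged 1.43 ± 0.207 TPM in SOD1-K123R and 0.568 ± 0.0695 TPM in SOD1-WT. Apoe, the apolipoprotein E of lipoprotein particles, averaged 4.89 ± 0.617 TPM in SOD1-K123R and 2.32 ± 0.569 TPM in SOD1-WT. Lcat, which esterifies cholesterol on those particles, averaged 7.26 ± 1.10 TPM in SOD1-K123R and 2.66 ± 0.297 TPM in SOD1-WT. Abcg1 and Apoe are known LXR targets, and they were higher in every SOD1-K123R library while Nr1h3 was lower in every one. Abcg4 is another such target, but it passed the filter on low values only through SOD1-K123R, so its rise is given as a description. A link of these genes to Nr1h3 was not tested.

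The 3 listed carriers and regulators that fell were Stard5, Cav1 and Nr1h3. Stard5, a cytosolic sterol-binding protein, had 9.0, 11.4, 7.17 and 10.3 TPM in SOD1-K123R libraries, against 27.2, 22.7, 22.2 and 33.5 TPM in SOD1-WT libraries. Cav1, the structural protein of the cholesterol-rich caveolae, had 136, 141, 122.9 and 109 TPM in SOD1-K123R libraries, against 227, 265, 337 and 312 TPM in SOD1-WT libraries. Both were lower in each SOD1-K123R library than in any SOD1-WT library (log2 fold changes -1.39, SE 0.16, and -1.15, SE 0.13; adjusted p = 2.42e-06 and 1.82e-06, limma). Pdzk1, a scaffold for the lipoprotein receptor SR-BI, and Serac1, a phosphatidylglycerol-remodelling protein needed for cholesterol traffic, are in none of the role lists and fell (log2 fold changes -0.80 and -0.46). The call for Serac1 was lost under median-of-ratios scaling (-0.20, adjusted p = 0.123) and under quantile normalization (-0.20, adjusted p = 0.119, limma). Serac1 also passed the filter on low values only through SOD1-WT, so its fall is given as a description.

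Several other members with a cholesterol term are in none of the role lists. Zdhhc8, a palmitoyltransferase annotated to cholesterol efflux, averaged 46.5 ± 5.24 TPM in SOD1-K123R and 14.3 ± 2.03 TPM in SOD1-WT (log2 fold change 1.64, SE 0.12). Sec24a, a cargo adaptor of the vesicles that leave the endoplasmic reticulum, rose to 30.0 ± 4.33 TPM in SOD1-K123R, against 11.9 ± 1.98 TPM in SOD1-WT. Fgf1, a growth factor, and Psme3, a proteasome activator, fell (log2 fold changes -1.16 and -1.86). Psme3 was among the most tightly measured members, at 20.5 ± 0.579 TPM in SOD1-K123R and 77.2 ± 2.10 TPM in SOD1-WT. Tug1, whose row is labelled as protein-coding and carries the term cholesterol binding, fell by 1.62 on the log2 scale. Neither label was checked here. Counted by the words of the rule, 11 of the 21 tested members with a cholesterol term rose and 9 fell, while 10 of 28 with a fatty acid term rose and 18 fell, and 5 of 17 with a lipid metabolic term rose and 12 fell. Over all tested rows, 44.6% rose and 51.1% fell. Members with more than 1 of these words count under each, and the differences between these splits were not tested.

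Among fatty acid genes, each role had only 2 to 4 tested members, and no test compared roles. Of 4 tested members that synthesise or elongate fatty acids 3 fell and 1 rose, against 51.1% and 44.6% of all tested rows. The list median log2 fold change was -0.93, against -0.49 for all rows. Acaca, acetyl-CoA carboxylase 1, which commits acetyl-CoA to fatty acid synthesis, had 4.28, 3.68, 3.31 and 3.84 TPM in SOD1-K123R libraries, against 11.1, 12.7, 11.99 and 12.5 TPM in SOD1-WT libraries. Hacd2, a dehydratase of the elongation cycle, had 10.7, 10.8, 11.01 and 9.83 TPM in SOD1-K123R libraries, against 17.0, 21.1, 22.8 and 24.1 TPM in SOD1-WT libraries. Both were lower in every SOD1-K123R library (log2 fold changes -1.45, SE 0.11, and -0.93, SE 0.12; adjusted p = 7.73e-08 and 5.76e-06, limma). Hacd4, a relative of Hacd2, fell by 0.93 on the log2 scale from a low level, with 1.57 ± 0.650 TPM in SOD1-K123R and 3.89 ± 1.17 TPM in SOD1-WT. Its groups did not overlap, but by a margin of only 2.52 TPM in the highest SOD1-K123R library against 2.53 TPM in the lowest SOD1-WT library.

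The exception was Elovl4, the elongase of very long fatty acids, which had 32.2, 31.9, 25.9 and 24.1 TPM in SOD1-K123R libraries, against 8.04, 7.05, 10.54 and 8.99 TPM in SOD1-WT libraries. It was higher in each SOD1-K123R library by a wide margin (log2 fold change 1.62, SE 0.14, adjusted p = 1.86e-07, limma). Aacs, a cytosolic enzyme that activates the ketone body acetoacetate for use in lipid synthesis, is in none of the lists and fell to 6.09 ± 0.774 TPM in SOD1-K123R, against 19.8 ± 1.89 TPM in SOD1-WT (log2 fold change -1.56, SE 0.12). Mecr, a reductase of mitochondrial fatty acid synthesis, fell to 0.933 ± 0.193 TPM in SOD1-K123R, against 3.31 ± 0.262 TPM in SOD1-WT. Mecr passed the filter on low values only through SOD1-WT, so its fall is given as a description. Mfsd2a, a transporter of lysophospholipids that carry the omega-3 fatty acid DHA, had 0.0900, 0.180, 0.220 and 0.260 TPM in SOD1-K123R libraries, against 4.64, 4.28, 3.12 and 3.32 TPM in SOD1-WT libraries. It passed the filter on low values only through the SOD1-WT libraries, so that it had to differ, and its log2 fold change of -2.02 is given as a description.

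All 3 tested members of the fatty acid oxidation list fell, as did 51.1% of all tested rows, and these 3 act in peroxisomes. Phyh, which starts the alpha-oxidation of branched fatty acids such as phytanic acid, had 28.0, 27.1, 21.3 and 24.8 TPM in SOD1-K123R libraries, against 53.1, 52.2, 53.1 and 54.3 TPM in SOD1-WT libraries. Hacl1, the lyase of the same pathway, had 3.00, 4.42, 3.45 and 4.46 TPM in SOD1-K123R libraries, against 11.3, 10.8, 11.2 and 12 TPM in SOD1-WT libraries. These 2 successive parts of alpha-oxidation were thus both lower in all SOD1-K123R libraries (log2 fold changes -1.05, SE 0.096, and -1.36, SE 0.13; adjusted p = 3.68e-07 and 4.37e-07, limma). Decr2, a peroxisomal reductase for unsaturated fatty acids, had 3.00, 2.34, 1.39 and 0.930 TPM in SOD1-K123R libraries, against 2.54, 2.46, 3.53 and 3.65 TPM in SOD1-WT libraries. Its groups overlapped, and the call (log2 fold change -0.52, SE 0.21, adjusted p = 0.0325, limma) was lost without SOD1-K123R replicate 3 (adjusted p = 0.0937) or 4 (0.108), without SOD1-WT replicate 3 (0.0728) or 4 (0.0912), after median-of-ratios scaling (0.336) and after quantile normalization (0.282). Cyp4v3, an omega-hydroxylase of fatty acids, also fell (log2 fold change -1.05, SE 0.14). Genes of mitochondrial beta-oxidation in the matrix or inner membrane were left out by the rule.

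**Figure D4:**
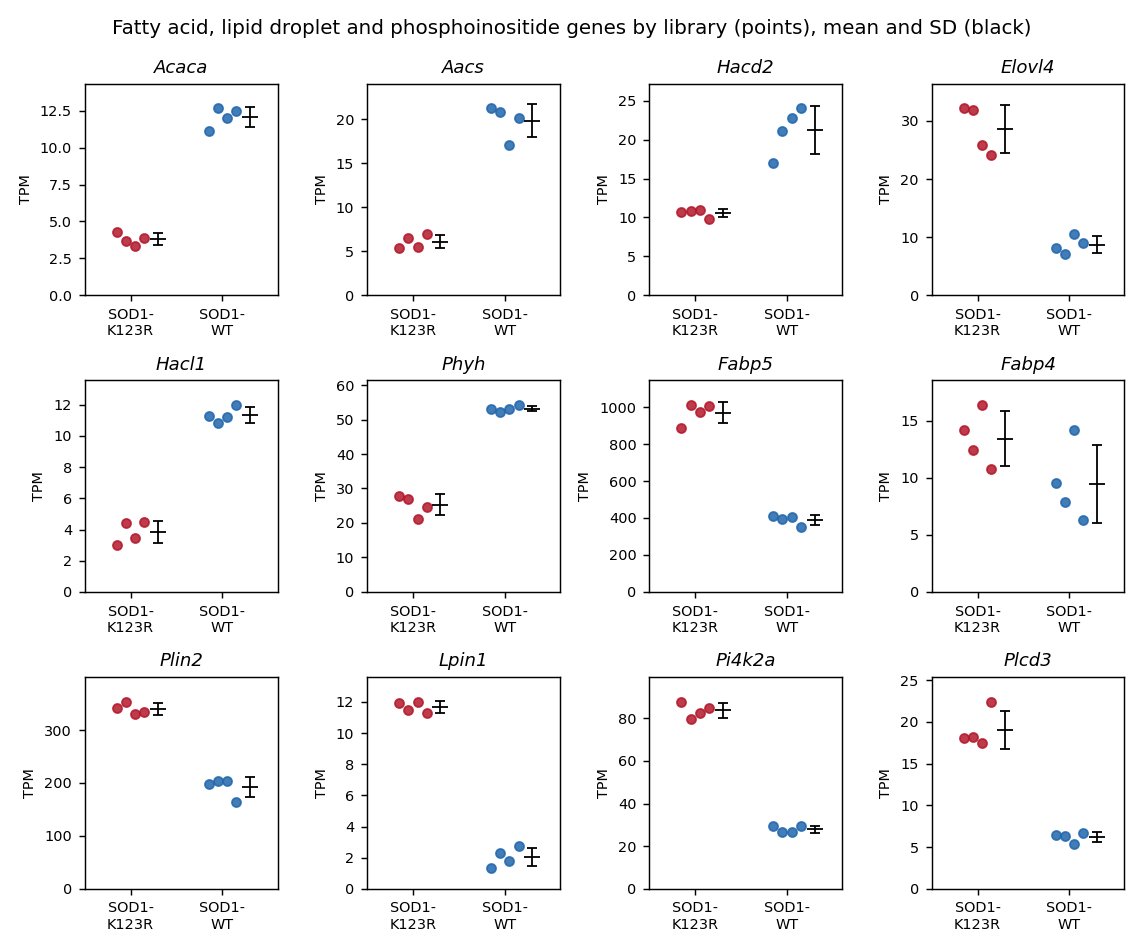
TPM of 12 genes of fatty acid, lipid droplet and phosphoinositide metabolism in each library (points), with the mean and SD of each group of 4 in black. Acaca, Aacs, Hacd2, Hacl1 and Phyh are lower in every SOD1-K123R library, Fabp4 overlaps between the groups, and Elovl4, Fabp5, Plin2, Lpin1, Pi4k2a and Plcd3 are higher in every SOD1-K123R library.

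The fatty acid binding protein Fabp5 was the third most abundant member and rose. Fabp5, which carries fatty acids through the cytosol, had 886, 1012, 976 and 1004 TPM in SOD1-K123R libraries, against 409, 394, 404 and 352 TPM in SOD1-WT libraries. All SOD1-K123R libraries were above 2 times the highest SOD1-WT library (ratio of means 2.49, log2 fold change 1.31, SE 0.081, adjusted p = 1.59e-08, limma). Its relative Fabp4, the form typical of adipocytes and macrophages, had 14.2, 12.4, 16.4 and 10.8 TPM in SOD1-K123R libraries, against 9.54, 7.89, 14.2 and 6.34 TPM in SOD1-WT libraries. The groups overlapped, and the call (log2 fold change 0.50, SE 0.20, adjusted p = 0.0298, limma) was lost when SOD1-K123R replicate 1 (0.0657) or 3 (0.0963) or SOD1-WT replicate 2 (0.0772) or 4 (0.105) was left out. Of 12 adipocyte markers only Fabp4 and Cebpa were among the rows, with a summed level of 14.5 to 20.4 TPM in SOD1-K123R and 7.97 to 15.2 TPM in SOD1-WT. Of 10 macrophage markers Cd68 and Lyz2 were among them, with a summed level of 23.4 to 30.9 TPM in SOD1-K123R and 5.44 to 8.04 TPM in SOD1-WT. Adipoq, Plin1, Ptprc and Csf1r, the defining markers, were not analysed here, and the part of such cells in the change of Fabp4 was not tested.

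Both tested members of the list of glycerolipids and droplets rose, as did 44.6% of all tested rows. Plin2, the perilipin that coats lipid droplets in most cells, had 341, 354, 329 and 333 TPM in SOD1-K123R libraries, against 199, 204, 203 and 164 TPM in SOD1-WT libraries. The groups were well apart (log2 fold change 0.82, SE 0.086, adjusted p = 1.29e-06, limma). Lpin1, a phosphatidate phosphatase that makes diacylglycerol and also acts in the nucleus as a coregulator of fatty acid genes, had 11.9, 11.5, 12.02 and 11.3 TPM in SOD1-K123R libraries, against 1.35, 2.29, 1.77 and 2.73 TPM in SOD1-WT libraries. Its SOD1-K123R libraries were nearly equal, at 5.74 times the SOD1-WT mean, and the log2 fold change of 2.08 (SE 0.14, adjusted p = 3.8e-08, limma) was exceeded among the members only by that of Insig1. G0s2, an inhibitor of the droplet lipase, is in the same list but carries no term of the rule, and it also rose (log2 fold change 1.07, SE 0.20).

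Enzymes of phosphoinositides, diacylglycerol and other phospholipids, grouped here after their values were seen, changed in both directions. Of 12 tested genes in the phospholipid list 5 rose and 7 fell, against 44.6% and 51.1% of all tested rows. Pi4k2a, a phosphatidylinositol 4-kinase of the trans-Golgi and endosomes, had 87.8, 79.6, 82.6 and 84.8 TPM in SOD1-K123R libraries, against 29.2, 26.6, 26.5 and 29.4 TPM in SOD1-WT libraries. Plcd3, a phospholipase C that cleaves phosphatidylinositol bisphosphate, had 18.1, 18.2, 17.4 and 22.4 TPM in SOD1-K123R libraries, against 6.5, 6.29, 5.33 and 6.66 TPM in SOD1-WT libraries. Both rose about 3-fold with no overlap (log2 fold changes 1.55, SE 0.080, and 1.47, SE 0.11; adjusted p = 3.61e-09 and 9.62e-08, limma). Pip5k1a, which makes phosphatidylinositol bisphosphate, averaged 88.3 ± 3.56 TPM in SOD1-K123R and 54.2 ± 3.53 TPM in SOD1-WT. Dgkh, a diacylglycerol kinase, averaged 3.43 ± 0.185 TPM in SOD1-K123R and 0.570 ± 0.171 TPM in SOD1-WT. Dgkh passed the filter on low values only through SOD1-K123R, so its rise is given as a description. Plcxd1, which has a phosphatidylinositol-specific phospholipase C domain, fell (log2 fold change -1.79, SE 0.19), as did the secreted phospholipase A2 Pla2g5 (-0.85, SE 0.15). Plcb1, a phospholipase C that is in the list but is not a member, was also lower (-1.36, SE 0.16). Plcxd1 and Plcb1 averaged 0.51 and 0.64 TPM in SOD1-K123R and passed the filter on low values only through SOD1-WT. The falls of Plcxd1 and Plcb1 are thus given as a description. Pla2g5 averaged 2.90 ± 0.518 TPM in SOD1-K123R and 6.04 ± 1.23 TPM in SOD1-WT. Mgst3, a microsomal glutathione transferase that acts on lipid peroxides and leukotrienes, also fell (-1.15, SE 0.18). It averaged 0.95 TPM in SOD1-K123R and passed the filter only through SOD1-WT, so this too is a description.

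Of 5 tested members in the list of lipid regulators, 4 were higher and Nr1h3 was lower, where 44.6% of all tested rows rose and 51.1% fell. Rora, a nuclear receptor that binds sterols, had 10.51, 10.9, 8.61 and 6.5 TPM in SOD1-K123R libraries, against 2.54, 3.55, 4.19 and 3.27 TPM in SOD1-WT libraries. Cebpa, a transcription factor of fat cell differentiation, averaged 3.41 ± 0.499 TPM in SOD1-K123R and 1.52 ± 0.353 TPM in SOD1-WT. Irs2, an adaptor of the insulin receptor, averaged 14.5 ± 1.63 TPM in SOD1-K123R and 7.37 ± 1.52 TPM in SOD1-WT. None of these 3 had overlapping groups (log2 fold changes 1.20, 0.81 and 0.90; adjusted p = 1.76e-05, 0.000114 and 3.99e-05, limma). Outside the lists, Sirt6, a chromatin deacylase that represses lipid genes, rose by a small amount, with 27.6, 25.8, 26.7 and 30.6 TPM in SOD1-K123R libraries, against 22.3, 21.6, 17.8 and 20.8 TPM in SOD1-WT libraries (log2 fold change 0.41, SE 0.099, adjusted p = 0.00149, limma).

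Pik3r1, the regulatory subunit of phosphoinositide 3-kinase, had 14.6, 14.0, 11.5 and 6.91 TPM in SOD1-K123R libraries, against 15.1, 20.3, 24.0 and 21.8 TPM in SOD1-WT libraries. The highest SOD1-K123R library was just under the lowest SOD1-WT library, and the call (log2 fold change -0.77, SE 0.20, adjusted p = 0.00296) was lost under median-of-ratios scaling (-0.32, adjusted p = 0.0918, limma). Rps6kb1, the S6 kinase, fell to 9.46 ± 2.26 TPM in SOD1-K123R, against 22.8 ± 5.20 TPM in SOD1-WT (log2 fold change -1.19, SE 0.18). Kat2b, a histone acetyltransferase annotated to fatty acid synthesis, fell by 1.43 on the log2 scale. The GO term cellular response to insulin stimulus, which the rule did not use, was carried by 6 tested members, of which Insig1, Lpin1 and Irs2 rose and Kat2b, Rps6kb1 and Pik3r1 fell. The term endoplasmic reticulum membrane was carried by 7 (11.3% of tested members, against 2.08% of all tested rows), of which Insig1 rose and 6 fell, Hacd2 and Psme3 among them. Of all tested rows, 44.6% rose and 51.1% fell. The members were picked by lipid terms, so their share of another term is a description of the rule, and neither difference was tested.

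**Figure D5:**
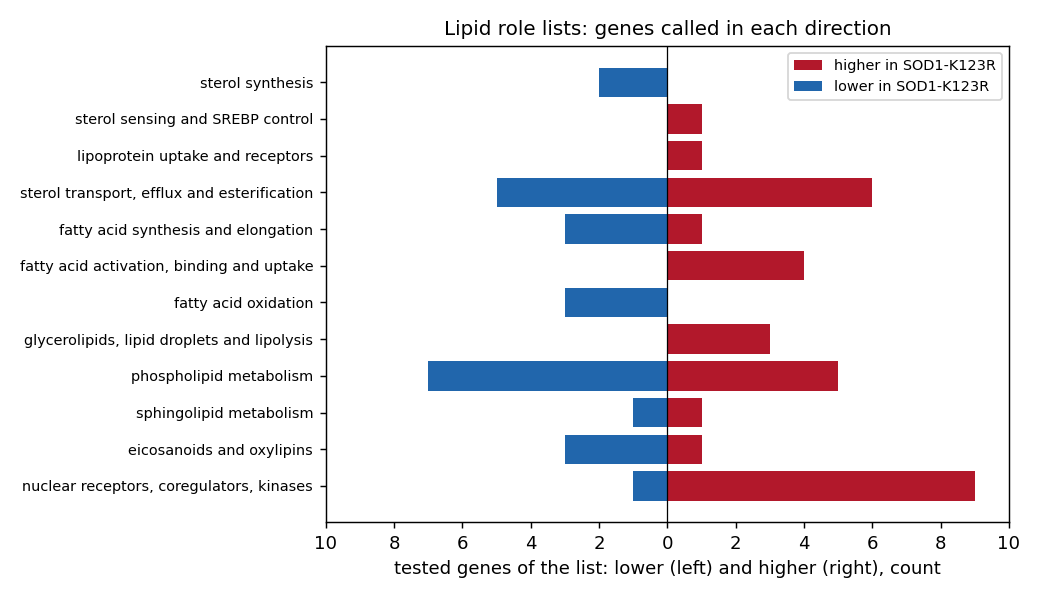
Number of tested genes called lower (left) and higher (right) in SOD1-K123R in each of 12 lists of lipid roles, counting members and other genes of the table. The lists of fatty acid oxidation and sterol synthesis hold only genes that fell (3 and 2), those of fatty acid binding and of droplets only genes that rose (4 and 3), and the list of nuclear receptors, coregulators and kinases 9 that rose and 1 that fell. The shares over all tested rows were 44.6% higher and 51.1% lower.

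Several members whose main role lies elsewhere entered through single terms. E2f1, which drives cells into S phase and carries a fatty acid term, fell by 2.31 on the log2 scale, to 4.05, 3.74, 3.56 and 4.82 TPM in SOD1-K123R libraries, against 27.1, 21.7, 22.1 and 25.2 TPM in SOD1-WT libraries. Sox9 rose by 1.58 on the same scale, but it passed the filter on low values only through SOD1-K123R. Ccl3, a chemokine annotated to cholesterol response, was the 1 tested member not called, with 848, 838, 1070 and 534 TPM in SOD1-K123R libraries, against 623, 770.0, 821 and 589 TPM in SOD1-WT libraries. SOD1-K123R replicate 4 was the lowest of all 8 libraries (log2 fold change 0.20, SE 0.18, adjusted p = 0.294, limma). Ccl3 was called higher without that library (0.40, adjusted p = 0.015) and after median-of-ratios scaling (0.68, adjusted p = 0.00526), but had a negative log2 fold change after quantile normalization (-0.24, adjusted p = 0.198). Gip, a gut hormone gene at 1.67 ± 0.883 TPM in SOD1-K123R and 2.81 ± 0.688 TPM in SOD1-WT, had overlapping groups, and its call (-0.56, adjusted p = 0.0257) was lost without SOD1-K123R replicate 1 (0.0764) or 2 (0.0861) or SOD1-WT replicate 1 (0.0677) and under both scalings (0.382 after median-of-ratios, 0.36 after quantile normalization). The remaining tested members not named above were 2 unnamed long noncoding RNAs that rose and a few protein-coding genes that fell.

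The other 15 members lay under the filter and were not tested, at a mean of 0.95 TPM or less. Among them Lipg, an endothelial-type lipase that acts on high-density lipoprotein, had 1.34, 1.01, 1.23 and 0.630 TPM in SOD1-K123R libraries, against 0.0600, 0.0600, 0.130 and 0.0600 TPM in SOD1-WT libraries. Cyp11a1, which starts steroid hormone synthesis from cholesterol, had 0.0700, 0.120, 0.460 and 0.220 TPM in SOD1-K123R libraries, against 0.620, 0.680, 0.740 and 1.16 TPM in SOD1-WT libraries. Acacb, the mitochondrial isoform of acetyl-CoA carboxylase, averaged 0.0200 TPM in SOD1-K123R and 0.0675 TPM in SOD1-WT, so Acaca was by far the more abundant of the pair in both groups. Of these 15, 7 had the higher mean in SOD1-K123R and 8 in SOD1-WT. Conversely, 9 tested members had a mean under 1 TPM in 1 group, 6 in SOD1-K123R and 3 in SOD1-WT, and so passed the filter only through the group where they were high. These were Mfsd2a, Plcxd1, Mecr, Mgst3, Hmgcll1 and Serac1, low in SOD1-K123R, and Abcg4, Dgkh and Sox9, low in SOD1-WT, and their calls support nothing on their own.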

How the data were processed

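The data were RNA-seq libraries of nucleus pulposus cells, 4 of SOD1-K123R and 4 of SOD1-WT, grouped by title and genotype label. The authors deposited 1 gene table of TPM with Ensembl identifiers, symbols and GO terms, per the file headers. RSEM is named in the title of the deposited table and DESeq2, without a role, in the submitters' processing notes. Aligner, build and annotation were not given in the sources used here. TPM keep no counts, so the depth is unknown and no counting interval is given. Library identifiers form a separate run in each group, so effects of handling cannot be told apart from the groups.

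Rows with a mean of at least 1 TPM were transformed to log2(TPM + 1), which understates changes of low genes, and limma 3.58.1 in R 4.3.3 gave the difference SOD1-K123R minus SOD1-WT (eBayes with a trend, two-sided, Benjamini-Hochberg adjustment over 2890 rows). The fit was tested on simulated data. TPM of genes with near-identical copies, such as pseudogenes, or with antisense partners are uncertain where reads were shared. Named are the 8 members with the largest change in each direction among called genes with no overlap and 5 TPM or more in the higher group, up to 5 per role list, the 5 most abundant, those not called, and Insig1, Acat2 and Fabp4. Any other gene was picked with its values in view. Some genes that the rule names are not reported here, though counts over the members and lists include them. The members and the 12 role lists were chosen with earlier results of these data known. Promoter windows were read from RefSeq (GRCr8) and scanned with Python 3.11.15. Alternatives were 2 pseudocounts, 2 filters, 2 scalings, no trend, a replicate block and leaving out each library.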

Additional observations from a re-analysis of the deposited data

Results flagged for a closer look

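In 9 of 118 groups of 4 libraries (7.63%), 1 library of a tested member lay far from the other 3 by Dixon's criterion, which chance alone meets in about 1 group of 20. Replicate 4 of SOD1-K123R had 493 TPM of Insig1, and the other replicates of SOD1-K123R had 574 to 587 TPM. In that same library Plcd3 read 22.4 TPM (the rest 17.4 to 18.2) and Gramd1a read 70.6 TPM (the rest 61.3 to 62.8). In SOD1-K123R replicate 2, Kat2b read 6.87 TPM (the rest 4.35 to 4.76), and in replicate 3 Pip5k1a read 83.0 TPM (the rest 89.8 to 90.4). Among SOD1-WT libraries, Plin2 read 164 TPM in replicate 4 (the rest 199 to 204), Cebpa 0.990 TPM in replicate 3 (the rest 1.63 to 1.75) and Gip 3.83 TPM in replicate 1 (the rest 2.32 to 2.55). An unnamed long noncoding RNA, ENSRNOG00000074157, read 1.89 TPM in SOD1-WT replicate 3 (the rest 1.04 to 1.17). Apart from Gip, the groups of these genes did not overlap.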

How the results depend on the processing

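Of 62 tested members, 54 kept their direction and call under every alternative in which they were tested. The 8 others were Ccl3, Fabp4, Gip, Decr2, Pik3r1, Serac1, Alms1 and Hmgcll1. Direction was kept by every member except Ccl3, whose log2 fold change of 0.20 became -0.24 after quantile normalization without being called in either. Median-of-ratios scaling ended the calls of Alms1 (-0.22, adjusted p = 0.0931, limma; 0.113 after quantile normalization) and Hmgcll1 (-0.29, adjusted p = 0.0628), besides those given with the results. Among members with a mean of at least 5 TPM, 35 were tested, 17 rose and 17 fell, and 11 rose and 14 fell at least 2-fold. Fewer genes were tested there, and the median log2 fold change also changed sign. It was 0.27 over all rows with that mean and 0.20 over the members among them, against -0.49 and -0.55 in the main fit. Members that rose or fell at least 2-fold numbered 22 and 8 after median-of-ratios scaling. Leaving out 1 library at a time gave 25 to 27 members higher and 34 to 35 lower, and 14 to 15 at least 2-fold higher and 20 to 24 at least 2-fold lower. The replicate numbers did not pair the libraries: correlations of deviations between same-numbered libraries were -0.35, 0.016, -0.204 and 0.0536. With a replicate block 26 members rose and 34 fell, and the 1 call that changed was Decr2 (log2 fold change -0.52, adjusted p = 0.069). Without depth, no limit could be set for members listed near 0.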

Other observations

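Genes of the role lists that are in the table but carry no term of the rule, or were left out by it, gave 27 tested rows, of which 15 rose and 12 fell in SOD1-K123R, against 44.6% and 51.1% of all rows tested. Phospholipid genes among them moved in both directions. Chka, the choline kinase that opens phosphatidylcholine synthesis, averaged 36.4 ± 1.88 TPM in SOD1-K123R and 4.29 ± 0.606 TPM in SOD1-WT (log2 fold change 2.83, SE 0.11, adjusted p = 4.25e-10, limma), while Pitpna, a phosphatidylinositol transfer protein, averaged 38.4 ± 3.81 TPM in SOD1-K123R and 115 ± 2.11 TPM in SOD1-WT (-1.57, SE 0.085, adjusted p = 5.33e-09). Chka and Pitpna were picked from both directions of the list.

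Of 4 tested genes in the list of eicosanoids and oxylipins, 1 rose (Ephx1, an epoxide hydrolase, log2 fold change 0.34, SE 0.14) and 3 fell. Ephx1 averaged 0.985 TPM in SOD1-WT, so it passed the filter on low values only through SOD1-K123R. Its groups overlapped, at 1.21 to 1.81 TPM in SOD1-K123R and 0.7 to 1.4 TPM in SOD1-WT, and its rise is given as a description. From the sterol list, Cyp7b1, which hydroxylates oxysterols, averaged 46.2 ± 5.38 TPM in SOD1-K123R and 178 ± 22.7 TPM in SOD1-WT (log2 fold change -1.92, SE 0.11). Cyp1b1, a cytochrome P450 that acts on fatty acids and steroids, averaged 7.30 ± 0.387 TPM in SOD1-K123R and 57.7 ± 4.96 TPM in SOD1-WT (-2.82, SE 0.094). Ptgr2, which breaks down prostaglandins, averaged 8.53 ± 0.547 TPM in SOD1-K123R and 28.3 ± 2.54 TPM in SOD1-WT (-1.62, SE 0.099). Smpd1, the acid sphingomyelinase, rose to 380.1 ± 25.2 TPM in SOD1-K123R, against 229 ± 13.6 TPM in SOD1-WT. Acot2, a thioesterase that releases fatty acids from coenzyme A, rose to 125 ± 12.1 TPM in SOD1-K123R, against 48.8 ± 4.33 TPM in SOD1-WT. These genes were chosen for mention after their values were seen.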
